A study of Mus musculus with 8 samples.

Results

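The aryl hydrocarbon receptor target genes are a battery of 8 genes that ligands of this receptor are known to raise. They were taken by symbol as Cyp1a1, Cyp1a2, Cyp1b1, Cyp2s1, Tiparp, Ahrr, Htatip2 and Pmm1, and all 8 were among the 15210 genes of the deposited table. Liver RNA came from 8 females of the F1-TKm30 line. This line has the immunodeficient NOG background, and in it a mutant herpes simplex virus thymidine kinase is driven by the mouse transthyretin enhancer and promoter, a hepatocyte promoter. The agent was MOCA, 4,4'-methylenebis(2-chlorobenzenamine), an aromatic amine and polyurethane hardener, given at 0.05% to 4 mice for 4 weeks, while 4 control mice had 0%. The titles name F1-TKm30 for both groups, so both are taken to carry the transgene. The headers of the deposited values begin with the word Wild in both groups. The labels name no other agent, and they do not state the route. Ages were 17 or 21 weeks and cannot be assigned to single mice. One label names C57BL mice in place of F1-TKm30.

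The aryl hydrocarbon receptor is a ligand-activated transcription factor that waits in the cytosol in a complex with HSP90 and p23. Bound to dioxins, polycyclic aromatic hydrocarbons or some aromatic compounds it enters the nucleus, pairs with ARNT and binds a short core element near its target genes. The classical hepatic response is a strong rise of the CYP1 enzymes, together with Tiparp and Ahrr, whose products turn the receptor off again. Cyp1a2 stands apart in liver because hepatocytes make it without any added ligand, and its product N-hydroxylates aromatic amines, the first step in their activation.

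Of the 8 genes, 4 had enough reads to be tested between MOCA and control livers, and none of these passed. The other 4 did not pass in a fit without a minimum either, and a rise of the CYP1 genes was not detected. Cyp1a2 was high in every mouse, and its 95% interval for MOCA over control ran from 0.827-fold to 1.14-fold. Cyp1a1, Cyp1b1, Cyp2s1 and Ahrr were near the detection limit in both groups. Tiparp and Pmm1 were lower and Htatip2 was higher in each MOCA mouse than in each control mouse, without passing after adjustment over all genes. Values are CPM after TMM scaling, that is, reads relative to the library's effective size, and 1 read was worth 0.0581 to 0.0648. Fold changes were taken on log2(value + 1), so those of genes with low values are understated. Tests are limma's with Benjamini-Hochberg adjustment over the 12008 genes whose value reached 1 in 4 libraries.

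Each mouse gave 1 library, with 15024945 to 17101844 reads counted over the listed genes. Each MOCA library (at most 15970453) had fewer such reads than each control library (at least 16077424). Reads outside these genes are not known. Of the 12008 genes tested, 80 were called at an adjusted p under 0.05 (0.666%), 48 higher (0.4%) and 32 lower (0.266%), a split of 131 and 38 when columns were scaled to equal sums. The groups did not overlap for 10.5% of tested genes, and 17.5% had an unadjusted p under 0.05. The tissue carried its defining markers: the 8 hepatocyte genes summed to 98931 to 118266 in control and 85697 to 99843 in MOCA livers, and none was listed at 0. Sinusoidal endothelial markers (8 genes) summed to 482 to 551 in control and 467 to 481 in MOCA livers. Erythroid markers (5 genes) summed to 252 to 442 in control and 472 to 524 in MOCA livers; Hbb-bs was listed at 0 in 7 of the 8 libraries. None of the genes in the 8 marker lists was called by edgeR or limma. Before adjustment, at p under 0.05, 2 markers each of the hepatocyte, pericentral, stellate and sinusoidal endothelial lists were lower, and 4 erythroid and 1 periportal marker were higher. DESeq2, which called 3.61% of all genes it tested, called 2 hepatocyte, 3 erythroid, 1 pericentral and 1 stellate marker.

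The receptor's binding core, GCGTG, is shown where it lies upstream of 5 of the genes. Tiparp, Htatip2 and Pmm1 are shown because their groups did not overlap, Cyp1a1 as the classical inducible gene, and Ahrr as the gene with the most cores. Each line gives the 250 bases before 1 annotated transcription start, 5′ to 3′ on the gene's strand, from RefSeq on GRCm38.p6 (mm10). The core is in capitals (CACGC where it lies on the opposite strand). The gene records of Htatip2 and Cyp1a1 begin upstream of the starts used here, at 49759045 and 57687928. The windows are chr3:65528197-65528446 (plus strand) for Tiparp, chr7:49758856-49759105 (plus strand) for Htatip2, chr15:81960931-81961180 (minus strand) for Pmm1, chr9:57697363-57697612 (plus strand) for Cyp1a1 and chr13:74292332-74292581 (minus strand) for Ahrr.
Tiparp: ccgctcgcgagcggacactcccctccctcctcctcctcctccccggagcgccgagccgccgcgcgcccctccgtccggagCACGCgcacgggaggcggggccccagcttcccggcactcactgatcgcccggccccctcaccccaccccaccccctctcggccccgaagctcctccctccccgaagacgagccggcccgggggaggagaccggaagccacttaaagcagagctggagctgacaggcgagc
Htatip2: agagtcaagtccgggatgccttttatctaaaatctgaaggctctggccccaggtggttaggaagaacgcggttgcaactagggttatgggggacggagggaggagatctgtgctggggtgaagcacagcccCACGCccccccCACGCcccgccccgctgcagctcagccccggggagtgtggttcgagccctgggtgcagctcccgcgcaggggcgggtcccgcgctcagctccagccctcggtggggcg
Pmm1: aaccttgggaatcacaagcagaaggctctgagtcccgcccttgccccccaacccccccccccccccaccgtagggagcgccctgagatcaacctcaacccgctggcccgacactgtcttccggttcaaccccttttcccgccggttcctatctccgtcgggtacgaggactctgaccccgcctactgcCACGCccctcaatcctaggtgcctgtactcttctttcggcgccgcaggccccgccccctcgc
Cyp1a1: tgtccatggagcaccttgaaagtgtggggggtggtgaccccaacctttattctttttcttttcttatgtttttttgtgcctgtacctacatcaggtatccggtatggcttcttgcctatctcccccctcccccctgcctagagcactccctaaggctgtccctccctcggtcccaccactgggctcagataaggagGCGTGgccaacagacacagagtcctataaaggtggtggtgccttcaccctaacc
Ahrr: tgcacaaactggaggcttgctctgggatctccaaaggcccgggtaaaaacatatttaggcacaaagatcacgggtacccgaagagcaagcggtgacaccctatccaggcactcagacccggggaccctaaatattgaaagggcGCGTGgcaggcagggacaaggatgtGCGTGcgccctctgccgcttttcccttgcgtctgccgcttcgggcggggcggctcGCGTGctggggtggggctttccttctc

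Searched on both strands over windows of 300 bases (250 before the start and 50 after it), GCGTG was found in 6 of the 9 windows of the 8 genes, in 47.3% of the 14399 windows of genes in the table and in 32.4% of all 32851 windows. Tiparp held 1 core, 170 bases before the start. Htatip2 held 2 at its first start and 0 at its second. Pmm1, Cyp1a1 and Cyp1b1 held 1 each, at 62, 54 and 76 bases before the start. Ahrr held 3, a number reached by 3.91% of all windows, at 107, 82 and 27 bases before the start. Cyp1a2 and Cyp2s1 held 0. The windows of the 8 genes had a median GC content of 61%, against 60% for windows of genes in the table and 52.7% over all windows. A match is a description of these letters, and binding was not tested. Sequence outside these windows was not searched, including most of the stretch between the Cyp1a1 and Cyp1a2 starts. A count of 0 therefore does not mean that a gene lacks an element elsewhere. The genes with a core included one that was higher in each MOCA mouse (Htatip2) as well as those that were lower (Tiparp, Pmm1).

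**Figure D1:**
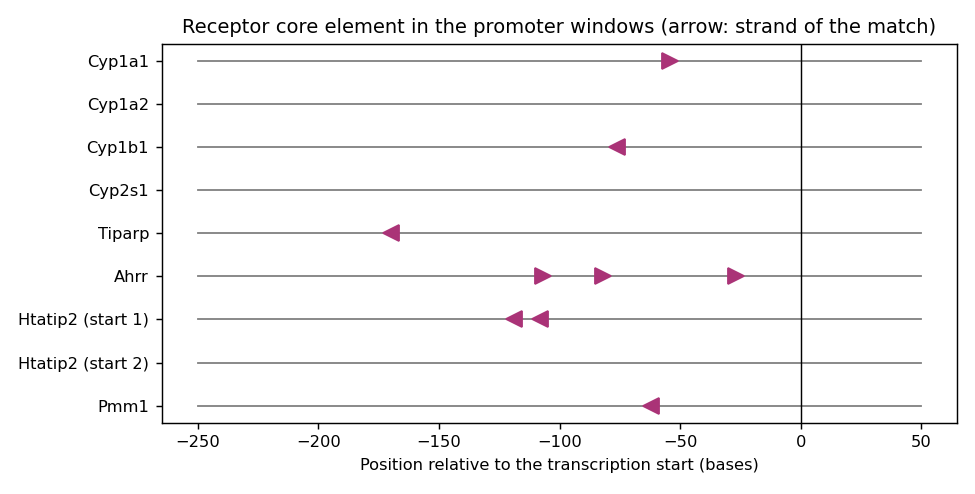
Position of each GCGTG match in the 300-base RefSeq windows of the 8 genes, in bases relative to the transcription start (x axis), with 1 row per window. Arrows pointing right are on the gene's strand and arrows pointing left on the opposite strand; Ahrr holds 3, Htatip2 holds 2 at its first start, and Cyp1a2 and Cyp2s1 hold none.

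Of the 4 P450 genes in the battery, Cyp1a2 was the only one above the minimum for testing. Cyp1a2 lies on chromosome 9 (57676937 to 57683655, minus strand). Its start in the promoter windows is 13958 bases from that of Cyp1a1, which is transcribed the other way. Control replicates 1, 2, 3 and 4 had 352, 471, 413 and 437, and MOCA replicates 1, 2, 3 and 4 had 400.1, 345, 441 and 438. The groups overlapped across nearly their whole range: the lowest value was that of a MOCA mouse and the highest that of a control mouse. The means were 418 ± 50.1 (SD, n = 4) and 406 ± 45.0 (SD, n = 4), a log2 fold change of -0.04 (SE 0.11; limma adjusted p = 0.884), with a 95% interval from -0.27 to 0.19. This estimate turned to 0.01 when columns were scaled to equal sums. Cyp1a2 was above 97.4% of the tested genes by its mean value, and 80.8% of them had a change at least as large in either direction.

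Per kilobase of spliced transcript, Cyp1a2 had 212 ± 22.9 CPM (SD over 8 mice) and stood at rank 20 of the 77 P450 genes in the table with a length. Cyp2s1, Cyp1a1 and Cyp1b1 stood at ranks 65, 68 and 70. By ratio of means per kilobase, Cyp1a2 was 917 times Cyp2s1, 1336 times Cyp1a1 and 1791 times Cyp1b1. In single libraries the ratio ran from 581 to 2220 for Cyp2s1, 847 to 8742 for Cyp1a1 and 875 to 6322 for Cyp1b1. These ratios rest on few reads of the lower gene. Cyp1a2 is a pericentral gene in liver. The 10 pericentral markers summed to 8438 to 9449 in control and 7472 to 8806 in MOCA livers, with 0 called and 8 of 10 estimates negative (median -0.16); their part in the Cyp1a2 values was not tested.

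Cyp1a1, the enzyme that oxidises polycyclic hydrocarbons and the usual read-out of the receptor, had 4, 9, 11 and 9 reads in control replicates 1 to 4 and 1, 8, 7 and 6 reads in MOCA replicates 1 to 4. In CPM these were 0.232, 0.580, 0.679 and 0.540 in control and 0.0636, 0.516, 0.454 and 0.367 in MOCA livers. The lowest mouse of each group was its replicate 1, and the groups overlapped. Summed over 4 mice each, 33 and 22 reads gave a scaled ratio of MOCA over control of 0.694, with an exact (Clopper-Pearson) 95% interval from 0.385 to 1.23 that covers counting error only. Reads without molecular identifiers are not independent molecules. The longest transcripts of Cyp1a1 and Cyp1a2 share an identical stretch of 137 bases and 94 identical windows of 50 bases. No source used here says how the counting split reads between the pair, so the few reads of Cyp1a1, beside the 5349 to 7306 of Cyp1a2 per library, are uncertain.

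Cyp1b1, a P450 known mainly from tissues other than liver and from mesenchymal cells, had 14, 7, 9 and 6 reads in control replicates 1 to 4. In MOCA replicates 1 to 4 it had 19, 10, 10 and 3, so that MOCA livers held both the highest and the lowest value. The 36 and 42 reads gave a scaled ratio of 1.21 (exact 95% interval 0.759 to 1.95, counting error only). The 10 stellate cell and fibroblast markers summed to 522 to 573 in control and 435 to 543 in MOCA livers, and their part in the Cyp1b1 values was not tested. Cyp2s1, another P450 with low expression in liver, had 10, 17, 14 and 9 reads in control and 8, 15, 5 and 16 in MOCA livers. Its groups overlapped, with a scaled ratio of 0.916 (0.597 to 1.40). GENCODE places 2 short non-coding genes, neither of them in the table, on the opposite strand within Cyp2s1.

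These 3 P450 genes and Ahrr were below the minimum for testing. Cyp1a1 and Ahrr reached a value of 1 in 0 of 8 libraries, and Cyp1b1 and Cyp2s1 in 1 each. In the fit over all 15210 genes without that minimum, in which 0.526% of genes were called, their log2 fold changes were -0.16 (Cyp1a1, adjusted p = 0.599), 0.09 (Cyp1b1, 0.854), -0.07 (Cyp2s1, 0.866) and 0.01 (Ahrr, 0.979), all adjusted p from limma. Without MOCA replicate 1 the Cyp1a1 estimate was -0.05 and that of Cyp1b1 turned to -0.059. The counting intervals do not hold the spread between mice.

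**Figure D2:**
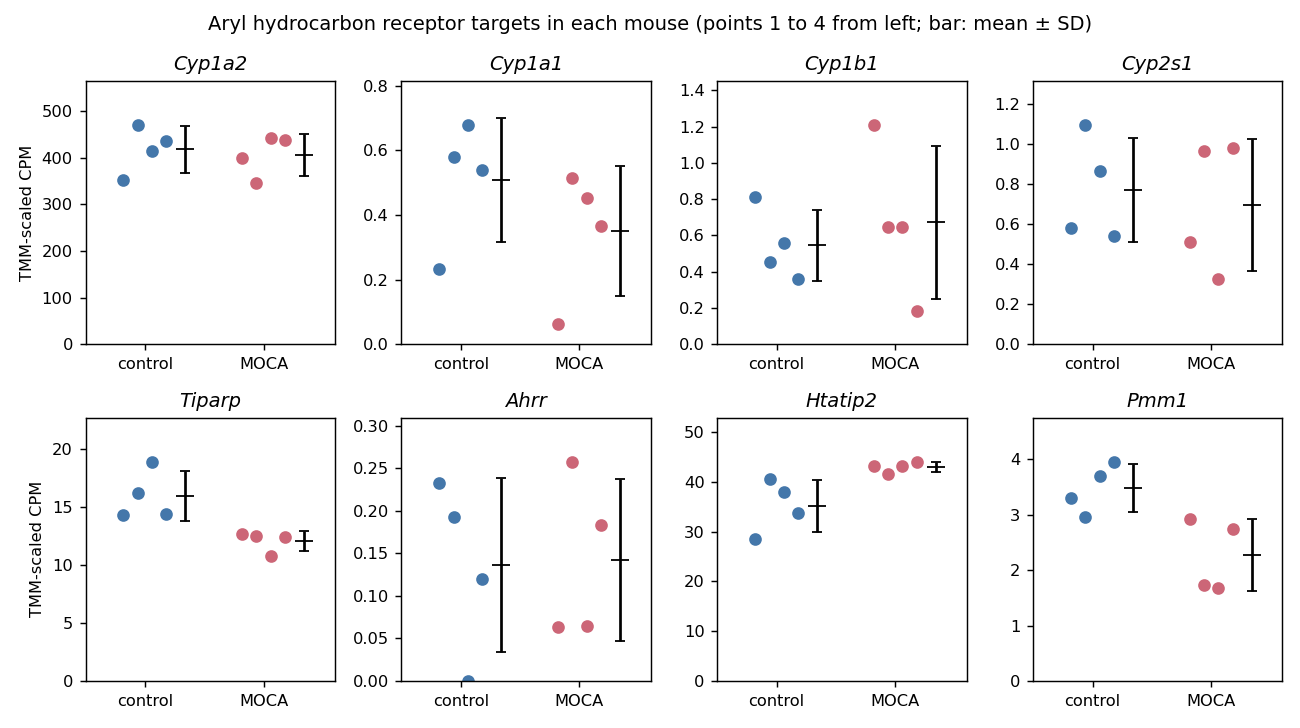
Values of the 8 genes in TMM-scaled CPM (y axes, each from 0) in 4 control mice (blue) and 4 MOCA mice (red), with replicates 1 to 4 from left to right and the mean ± SD as a black bar. Tiparp and Pmm1 lie lower and Htatip2 higher in all MOCA mice, and the groups overlap for the other 5 genes.

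The feedback genes differed in level and in how the groups lay. Tiparp, an ADP-ribosyltransferase that modifies the receptor and shortens its activity (chromosome 3, 65528447 to 65555518, plus strand), had 14.4, 16.2, 18.9 and 14.4 in control replicates 1 to 4. In MOCA replicates 1 to 4 it had 12.7, 12.5, 10.8 and 12.5, so the highest MOCA value lay below the lowest control value (12.7 and 14.4). The means were 15.98 ± 2.16 and 12.1 ± 0.866 (SD, n = 4 each), a log2 fold change of -0.37 (SE 0.10, 95% interval -0.59 to -0.14). Its unadjusted p was 0.00425, which 3.54% of tested genes matched or bettered, and its limma adjusted p was 0.12 (over the alternatives, from 0.0593 with DESeq2 to 0.277 with limma without control replicate 3). Tiparp rested on 167 to 307 reads per library. A transcribed pseudogene on the opposite strand, 4931440P22Rik, overlaps it over 970 bases. The pseudogene was 0.60 ± 0.25 (SD, n = 4) in control and 0.31 ± 0.25 (SD, n = 4) in MOCA mice. Whether reads were counted by strand is not stated in the labels, so the part of the pseudogene in the Tiparp reads was not tested.

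Ahrr, the repressor that competes with the receptor for ARNT (chromosome 13, 74211118 to 74292331, minus strand), was the lowest of the 8 genes. Its window is the one with the 3 cores shown above. It had 4, 3, 0 and 2 reads in control replicates 1 to 4 and 1, 4, 1 and 3 in MOCA replicates 1 to 4. Both groups summed to 9 reads, with a scaled ratio of 1.04 and an exact 95% interval from 0.366 to 2.96. That interval covers counting error only, and the reads do not tell apart the ratios within it.

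Htatip2 and Pmm1 are targets outside the P450 family. Htatip2, an oxidoreductase also called TIP30 (chromosome 7, 49759045 to 49774000, plus strand), had 28.6, 40.6, 37.95 and 33.8 in control replicates 1 to 4 and 43.1, 41.7, 43.2 and 44.1 in MOCA replicates 1 to 4. The lowest MOCA value (41.7) was above the highest control value (40.6). The means were 35.2 ± 5.26 and 43.0 ± 0.992 (SD, n = 4 each), with the control mice spread over a wider range than the MOCA mice. The log2 fold change was 0.29 (SE 0.10, 95% interval 0.07 to 0.51), with an unadjusted p of 0.0131 and a limma adjusted p of 0.175. Without control replicate 1, the lowest library, it was 0.20.

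Pmm1, a phosphomannomutase (chromosome 15, 81951106 to 81960930, minus strand), had 3.31, 2.96, 3.70 and 3.96 in control replicates 1 to 4. In MOCA replicates 1 to 4 it had 2.93, 1.74, 1.68 and 2.75. The groups were separated by a narrow gap, 2.93 against 2.96, and MOCA replicates 2 and 3 were the low ones. The means were 3.48 ± 0.438 and 2.28 ± 0.654 (SD, n = 4 each). The log2 fold change was -0.47 (SE 0.15, 95% interval -0.80 to -0.14, limma unadjusted p = 0.00979, limma adjusted p = 0.162). On the read scale, where the added 1 does not shrink low values, edgeR gave -0.61 (adjusted p = 0.173), and the gene rested on 26 to 66 reads per library.

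In all, 3 of the 4 tested genes had groups that did not overlap, against 10.5% of all tested genes. The same 3 had an unadjusted p under 0.05, against 17.5%. Of these, 1 was higher (5.5% of tested genes were higher without overlap and 9.42% at the unadjusted p) and 2 were lower (4.96% and 8.05%). With 4 genes such counts rest on few values, and 0 of the 4 were called, against 0.666%. The count tests edgeR and DESeq2 also called 0 of the 4, against 0.683% and 3.61% of tested genes; the smallest adjusted p was DESeq2's for Tiparp, 0.0593. The median log2 fold change of the 4 was -0.20, against 0.01 over all tested genes, with 1 positive and 3 negative estimates. Hepatocyte markers had estimates of the same sign as Tiparp and Pmm1 (8 of 8 negative, median -0.18, with 2 whose groups did not overlap), as did 6 of 8 sinusoidal endothelial markers (median -0.11). Whether these play a part in the values of Tiparp and Pmm1 was not tested. In whole liver, fewer cells of a type and less RNA per cell cannot be told apart.

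**Figure D3:**
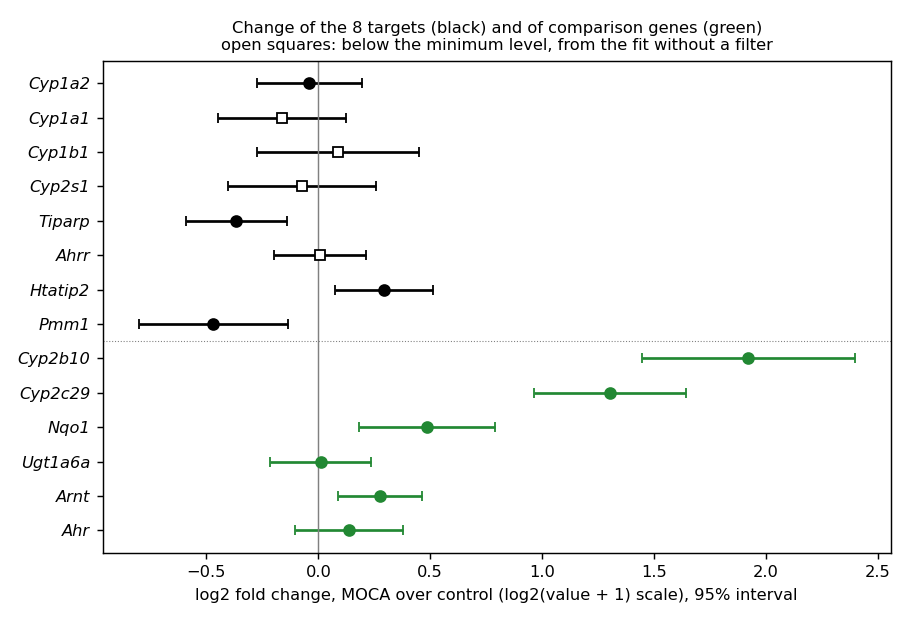
Log2 fold change of MOCA over control with its 95% interval (x axis) for the 8 targets (black) and for 6 comparison genes (green), 4 mice per group. Open squares mark genes below the minimum for testing; the added 1 draws these toward 0, and their read counts allow wider ranges. Cyp2b10 lies at 1.92 and Cyp2c29 at 1.30, and the highest of the 4 tested targets is Htatip2 (0.29).

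Ordered by level per kilobase over all 8 mice, the genes ran Cyp1a2, Htatip2 (27.6), Tiparp (3.35), Pmm1 (2.22), Cyp2s1 (0.232), Cyp1a1 (0.159), Cyp1b1 (0.119) and Ahrr (0.0293). The steps from Cyp1a2 to Htatip2, from Htatip2 to Tiparp and from Pmm1 to Cyp2s1 exceeded the spread, in that the lowest mouse of the upper gene lay above the highest mouse of the lower gene. Tiparp and Pmm1 overlapped (lowest Tiparp 2.58, highest Pmm1 3.05), and so did each neighbouring pair from Cyp2s1 down to Ahrr. The battery thus fell into 4 genes with at least 26 reads in every library and 4 with at most 19 reads in any.

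**Figure D4:**
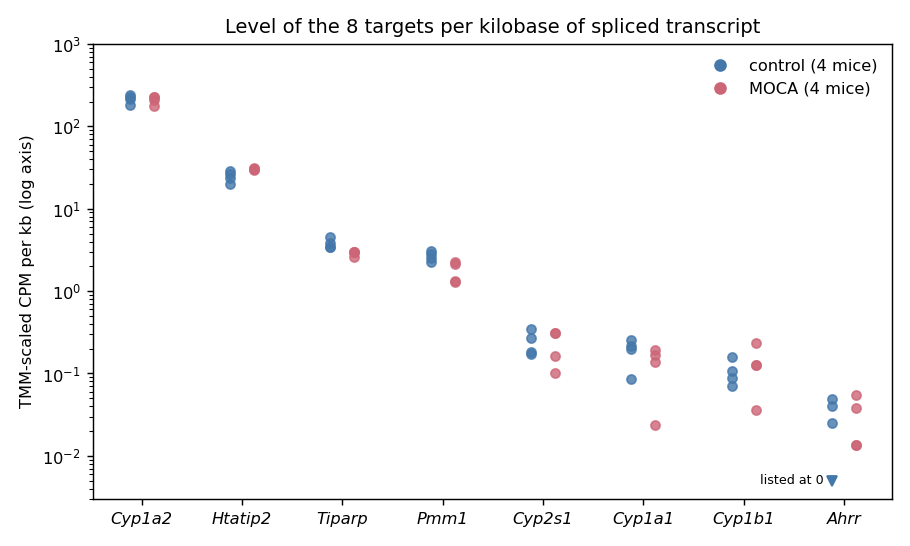
Level of each target in TMM-scaled CPM per kilobase of spliced transcript (y axis, log scale) in 4 control (blue) and 4 MOCA (red) mice, with genes ordered by their mean. Cyp1a2 lies near 212 and Ahrr near 0.0293; the triangle marks the control library in which Ahrr was listed at 0.

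Over 8 mice, Tiparp and Pmm1 had a Pearson r of 0.73 (Spearman 0.86), both being lower in MOCA mice. For deviations from the group means the r of this pair was 0.28. Cyp1a2 and Htatip2 had an r of 0.39 over all mice and 0.73 for deviations from the group means, with control replicate 1 the lowest control mouse for both. Htatip2 ran against Tiparp (Spearman -0.74) and Pmm1 (Spearman -0.81) over all mice, being higher in MOCA mice where they were lower. For deviations from the group means the r was 0.58 with Tiparp and -0.02 with Pmm1. Cyp1a2 had an r of 0.12 with Tiparp and 0.19 with Pmm1. These are descriptions over 8 libraries that share the group difference and the scaling of each library. Among 9273 other tested genes with a mean of at least 5, the patterns most like Cyp1a2 over the 8 mice were those of Rab27a (r = 0.93) and Cyp2b13 (r = 0.92). Those most like Tiparp were Tmtc2 and Mbtd1 (both r = 0.98), and those most like Htatip2 were Ost4 (r = 0.98) and Gsta2 (r = 0.97). An r of at least 0.9 was reached with 4 genes for Cyp1a2, 64 for Tiparp and 35 for Htatip2.

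Of the receptor and its partners, 11 of 12 listed genes were tested and 0 were called by limma, edgeR or DESeq2, which called 0.666%, 0.683% and 3.61% of all genes they tested. At an unadjusted p under 0.05, 3 had a positive estimate (against 9.42% of all tested genes) and 0 a negative one (8.05%). Ahr itself was 84.9, 61.4, 80.5 and 75.1 in control and 95.6, 72.9, 82.7 and 80.4 in MOCA mice (log2 fold change 0.14, SE 0.11, limma adjusted p = 0.555), so the transcript of the receptor was present in every liver. Arnt, its partner, was 38.1, 34.9, 34.9 and 35.0 in control and 49.3, 37.8, 42.8 and 44.4 in MOCA mice (0.27, SE 0.09, limma adjusted p = 0.151). All MOCA values of Arnt but that of replicate 2 lay above the control mice. Ptges3, which encodes p23, was 146 ± 9.54 and 171 ± 11.5 (limma adjusted p = 0.161), and the chaperone gene Hsp90aa1 was 345 ± 60.7 and 476 ± 121 (limma adjusted p = 0.225). The median log2 fold change of the 11 genes was 0.02.

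Of 18 other genes known to be raised by dioxin-type ligands in liver, 17 were in the table and 16 were tested. None was called by limma or edgeR (0.666% and 0.683% of all tested genes were). At an unadjusted p under 0.05, 6 of 16 had a positive estimate (9.42% of all tested genes) and 0 a negative one (8.05%), and 13 of 16 estimates were positive (median 0.12). DESeq2, which called 3.61% of all genes it tested, called 2, Gsta1 and Ugdh. Gsta1, an alpha-class glutathione transferase that oxidative stress signalling also raises, had 1.34, 2.00, 0.926 and 0.960 in control and 5.35, 2.26, 3.11 and 6.54 in MOCA mice. Every MOCA value lay above every control value (log2 fold change 1.15, SE 0.25, limma adjusted p = 0.0626). Gsta1 was called when columns were scaled to equal sums (adjusted p = 0.044) and without MOCA replicate 2 (0.0353). It has close paralogs, so its value is uncertain.

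Ugdh, which makes the sugar donor for glucuronidation, was 105 ± 17.1 in control and 146 ± 18.8 in MOCA mice (0.47 on the log2 scale, SE 0.12, limma adjusted p = 0.103). Nqo1, a quinone reductase shared with the NRF2 response, had 5.93, 9.53, 6.54 and 7.32 in control and 10.1, 9.22, 10.4 and 12.6 in MOCA mice, with 1 MOCA mouse inside the control range (0.49, SE 0.14, limma adjusted p = 0.123). Ugt1a6a, a glucuronosyltransferase with a receptor element in its promoter region, was 124 ± 15.8 and 124 ± 12.9 (0.01, SE 0.10, limma adjusted p = 0.972), a sign that turned with upper quartile scaling.

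Among 11 genes of arylamine metabolism and P450 electron supply, 10 were tested and none passed with limma or edgeR. Before adjustment, at p under 0.05, 4 had a positive estimate (against 9.42% of all tested genes) and 1 a negative one (against 8.05%), and the median was 0.08. Por, the reductase that passes electrons to Cyp1a2 and other microsomal P450 enzymes, had 454, 516, 607 and 544 in control mice. It had 530.0, 402, 343 and 336 in MOCA mice, of which all but replicate 1 lay below the control mice (log2 fold change -0.41, SE 0.14, limma adjusted p = 0.174). Ephx1, microsomal epoxide hydrolase, was 592 ± 66.7 and 786 ± 53.5 with no overlap (0.41, SE 0.09, limma adjusted p = 0.0661). DESeq2 called Ephx1 alone of the 10 (adjusted p = 0.00218; 3.61% over all genes), and limma called it without control replicate 2 (0.0344) and with equal column sums (0.0169).

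The 3 phenobarbital-type genes are a reference from the same livers. They were chosen with earlier results of these data known, so neither their calls nor where their intervals lie is a test. Of the 3, 2 were called higher (0.4% of all tested genes were). Cyp2b10 had 21.4, 44.2, 46.5 and 38.6 in control and 166, 159, 106 and 137 in MOCA mice, and rose by a log2 fold change of 1.92 (SE 0.22, limma adjusted p = 0.00468). Cyp2c29 rose by 1.30 (SE 0.15, limma adjusted p = 0.00534), while Cyp3a11 had an estimate of 0.0021 (SE 0.18, limma adjusted p = 0.996). The 95% interval of Cyp2b10 (1.44 to 2.40) lay above those of the 4 tested targets, whose highest upper bound was 0.51, for Htatip2. For the 4 targets with few reads no such statement is made, since their intervals on the read scale cover counting error only. Those intervals reached 2.96-fold for Ahrr, 1.23-fold for Cyp1a1, 1.95-fold for Cyp1b1 and 1.40-fold for Cyp2s1. The limma interval of Cyp2b10, a different kind that holds the spread between mice, began at 2.72-fold. The change of Cyp2b10 against that of each target was not tested.

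**Figure D5:**
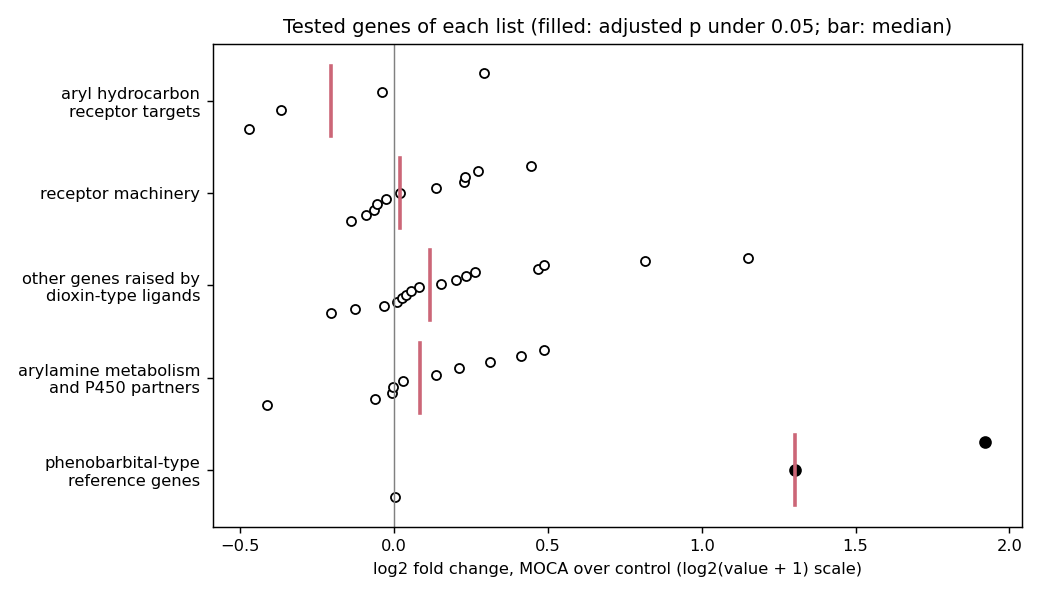
Log2 fold change of MOCA over control (x axis) for every tested gene of the 8 targets and of the 4 comparison lists, with 1 point per gene, filled where the adjusted p was under 0.05, and a red bar at the list's median. The filled points are Cyp2b10 and Cyp2c29, at 1.92 and 1.30; the medians of the other lists run from -0.20 to 0.12.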

How the data were processed

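Per the labels' protocols, RNeasy RNA (200 ng per mouse) went into strand-specific MGIEasy libraries after removal of ribosomal RNA. The build mm10 and the tools RSEM, edgeR, Bowtie2 and Trimmomatic 0.38 are named, without role or order, per the submitters' processing notes. The authors deposited 1 table of normalised signal with 1 column per mouse, and 0 columns were unused. In each column 100% of values were whole multiples of what 1 read is worth (tolerance 0.001), which gives back the reads, and the values equal TMM-scaled CPM recomputed from those reads with edgeR.

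Groups came from the labels' titles, which number each mouse. MOCA was tested against control with limma 3.58.1 in R 4.3.3 (lmFit, eBayes with trend) on log2(value + 1), without covariates, for genes whose value reached 1 in 4 of 8 libraries; 3202 genes were left out. A call is a Benjamini-Hochberg adjusted p under 0.05. The limma script was tested on simulated data. Count tests on recovered reads (edgeR 4.0.16 quasi-likelihood with 82 calls, DESeq2 1.42.0), pseudocounts of 0.25 and 4, other filters and scalings, other eBayes settings, sample weights, a replicate block and leaving out each mouse were alternatives. Counting intervals are exact and scale the reads by the TMM-scaled depth. Gene positions are RefSeq records of GRCm38.p6; spliced length is that of the longest basic protein-coding transcript in GENCODE vM21.

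Named are the 8 targets, Ahr, Arnt, Nqo1, Ugt1a6a, Cyp2b10 and Cyp2c29, in each list every called gene and the 3 with the smallest p, and the 2 genes most like each tested target with a mean of at least 5. 4931440P22Rik and Hbb-bs were named after their values were seen. The targets and lists were chosen with earlier results of these data known.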

Additional observations from a re-analysis of the deposited data

Results flagged for a closer look

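In 20 groups of 4 mice (the 8 targets, Ahr and Arnt), the lowest and highest mouse were compared with the nearest of the others, and chance marks about 1 group in 20. Tiparp in MOCA replicate 3 (10.8) was far from the other MOCA mice, with a gap of 0.891 of the group's range. Arnt in control replicate 1 (38.1) was far above the other control mice, with a gap of 0.956 of the range. Without these libraries the log2 fold changes were -0.32 for Tiparp (limma adjusted p = 0.209) and 0.30 for Arnt (limma adjusted p = 0.153).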

How the results depend on the processing

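None of the 4 tested targets was called under any of the alternatives run, and Tiparp, Htatip2 and Pmm1 kept their direction in all of them, from -0.41 to -0.29, 0.20 to 0.36 and -0.62 to -0.26. Cyp1a2 turned to 0.013 with equal column sums and ranged from -0.12 to 0.036 when 1 mouse was left out. Leaving out 1 mouse also turned Cyp1b1 (-0.059 to 0.24), Cyp2s1 (-0.15 to 0.039), Ahrr (-0.052 to 0.049) and Ugt1a6a (-0.056 to 0.068); Ugt1a6a was -0.0016 with upper quartile scaling. The number of genes called over the whole table moved from 80 (48 higher, 32 lower) to 169 with equal column sums (131 higher), 425 with DESeq2 (222 higher, 203 lower) and 13 at an adjusted p under 0.01 (10 higher, 3 lower), and 53 were lower with robust eBayes. Leaving out 1 mouse gave 29 to 77 calls (21 to 42 higher, 8 to 35 lower), with 45, 47, 29 and 40 without control replicates 1, 2, 3 and 4 and 42 and 39 without MOCA replicates 2 and 4. The cause was not tested. Calls among the other dioxin-raised genes moved from 0 to 1 with equal column sums, 2 with DESeq2 and 0 to 1 without 1 mouse; among arylamine genes they moved from 0 to 1 in each of these. With the replicate number as a block 30 genes were called (20 higher, 10 lower). For deviations from the group means, same-numbered mice correlated at -0.07 to 0.04. By the same measure, 0 of 8 libraries correlated best with their own number in the other group. These values show no pairing by number but cannot exclude one. A value of at least 5 left no fit for Pmm1. Depth limits Cyp1a1, Cyp1b1, Cyp2s1 and Ahrr, at 0 to 19 reads per library.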
